A study of Homo sapiens with 6 samples.

Results

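Keratins are the intermediate filament proteins of epithelial cells, and 10 keratin genes that mark the basal and luminal layers of the mammary gland were followed through maps of open chromatin. The basal set held KRT5, KRT14, KRT6A, KRT6B, KRT15, KRT16 and KRT17, and the luminal set held KRT7, KRT8 and KRT18, so that 10 of 20007 protein-coding genes were described. For each gene, every open region touching the gene body plus 5 kb on either side (GENCODE release 44, hg38) was collected, together with whether it covered the start site, its width and the rank of its score. Open chromatin had been mapped by ATAC-seq, in which Tn5 transposase inserts adapters into accessible DNA, in wild-type MCF10A, an established, non-tumorigenic line of human mammary epithelial cells. About 50000 cells per library were held for 30 min in phosphate-free HHBSS, a buffered salt solution, and then for a further 30 min without addition (control), with 50 μM TPA, a Zn2+ chelator, or with 30 μM ZnCl2. There were 2 libraries per condition and 6 in all, from 1 cell line, and whether replicates were separate cultures is described in more than 1 way in the methods and results, so spread between them may be technical.

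Each library had its own list of open regions, from 18887 regions in ZnCl2 replicate 2 to 44641 in control replicate 2. Where a pair of values is given for a condition, replicate 1 comes first. Sequencing depth is unknown because the lists carry no read counts. ZnCl2 replicate 2 had the shortest list, and TPA replicate 2 had 998 regions wider than 10 kb where the other lists had 29 to 157. Outermost annotated starts of basal epithelial marker genes were open in all 6 libraries for 7 of 10 genes, including LAMB3 and SFN. TP63, a defining basal transcription factor, had no region at its outermost or its reference (MANE Select) start in any library. Other starts of TP63 were not examined. Of the markers of other cell types, 1 of 8 hormone-receptor luminal genes (FOXA1), 1 of 7 immune genes (CD68) and none of 7 fibroblast, 5 endothelial or 4 adipocyte genes were open in all 6. At the starts of reference (MANE Select) transcripts, GATA3 and CD14 were open in all 6 as well, which made 2 of 8 and 2 of 7.

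Keratin filaments are built from pairs of an acidic type I and a basic type II protein. KRT5 and KRT14 are the pair of basal cells in stratified and glandular epithelia, KRT15 is a further type I keratin of basal layers, and KRT6A, KRT6B, KRT16 and KRT17 are best known from wounded or stressed epithelium and skin appendages. KRT8 and KRT18 are the pair of simple and luminal epithelia, and KRT7 is a type II keratin of glandular ducts. The type II genes and KRT18 lie in a cluster on chromosome 12, and the other type I genes lie on chromosome 17.

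The sequences below show the KRT5 start, whose open region ranked higher in both TPA than in both control libraries, and 2 regions away from start sites that recurred across libraries. For KRT5 it is the part of the RefSeq promoter (GRCh38.p14) upstream of every annotated start, at chr12:52520531-52520644 on the minus strand. The other stretches are 300 bases around the middle of the interval shared by the lists (hg38), at chr17:41579616-41579915 (minus strand) beyond the 3′ end of KRT14 and outside annotated genes, and at chr12:52442561-52442860 (minus strand) beyond the 3′ end of KRT6B and outside annotated genes. Capitals mark the letters GGAATG, the core recognised by TEAD factors, on either strand.
KRT5 promoter: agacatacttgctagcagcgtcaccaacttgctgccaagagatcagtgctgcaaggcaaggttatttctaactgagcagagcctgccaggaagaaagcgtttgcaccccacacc
KRT14 downstream: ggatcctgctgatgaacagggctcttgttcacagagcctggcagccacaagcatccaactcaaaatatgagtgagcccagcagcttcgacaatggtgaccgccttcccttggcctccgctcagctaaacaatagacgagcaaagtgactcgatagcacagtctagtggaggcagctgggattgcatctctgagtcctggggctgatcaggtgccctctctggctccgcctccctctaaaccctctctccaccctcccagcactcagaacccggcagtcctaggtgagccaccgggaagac
KRT6B downstream: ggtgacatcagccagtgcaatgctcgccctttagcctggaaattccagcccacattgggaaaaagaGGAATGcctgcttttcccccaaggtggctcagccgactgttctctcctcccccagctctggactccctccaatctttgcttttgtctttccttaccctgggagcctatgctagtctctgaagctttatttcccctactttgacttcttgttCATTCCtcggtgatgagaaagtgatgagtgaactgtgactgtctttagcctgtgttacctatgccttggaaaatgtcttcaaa

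Both strands of these stretches were searched for ATAAAA (an AT-rich box), TGANTCA (AP-1), GGAATG (TEAD), GGGCGG (GC box) and GCCNNNGGC (AP-2), letters that were chosen after the sequences had been seen. GGAATG occurred at bases 67 and 218 of the KRT6B downstream stretch, and 18.9% of the regions of control replicate 2 held it within their central 300 bases. The complete 250 bases before the KRT5 start held ATAAAA once, ending 23 bases before the start, as did 11.7% of 15843 RefSeq promoters of the same length. None of the 5 motifs occurred in the KRT14 downstream stretch, and a match or its absence is only a description of these letters.

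In the complete lists, the outermost starts of KRT5, KRT6A and KRT17 were open in 5 libraries and those of the other basal keratins in fewer. No basal keratin start was open in ZnCl2 replicate 2. Counting the outermost annotated start of each gene, 3, 5, 5, 5, 6 and 0 of the 7 basal keratins were open in control replicates 1 and 2, TPA replicates 1 and 2 and ZnCl2 replicates 1 and 2, against 3, 3, 3, 3, 3 and 2 of the 3 luminal keratins. No basal keratin and 2 of 3 luminal keratins were open in all 6 libraries, where 39.4% of all protein-coding starts were. With only the 18887 highest scoring regions of each list, the number in the shortest list, 1, 0, 4, 4, 2 and 0 basal keratins were open in the same order, so that control replicate 2 then had none either. In this bulk assay, fewer cells with an open site and less opening per cell cannot be told apart.

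**Figure D1:**
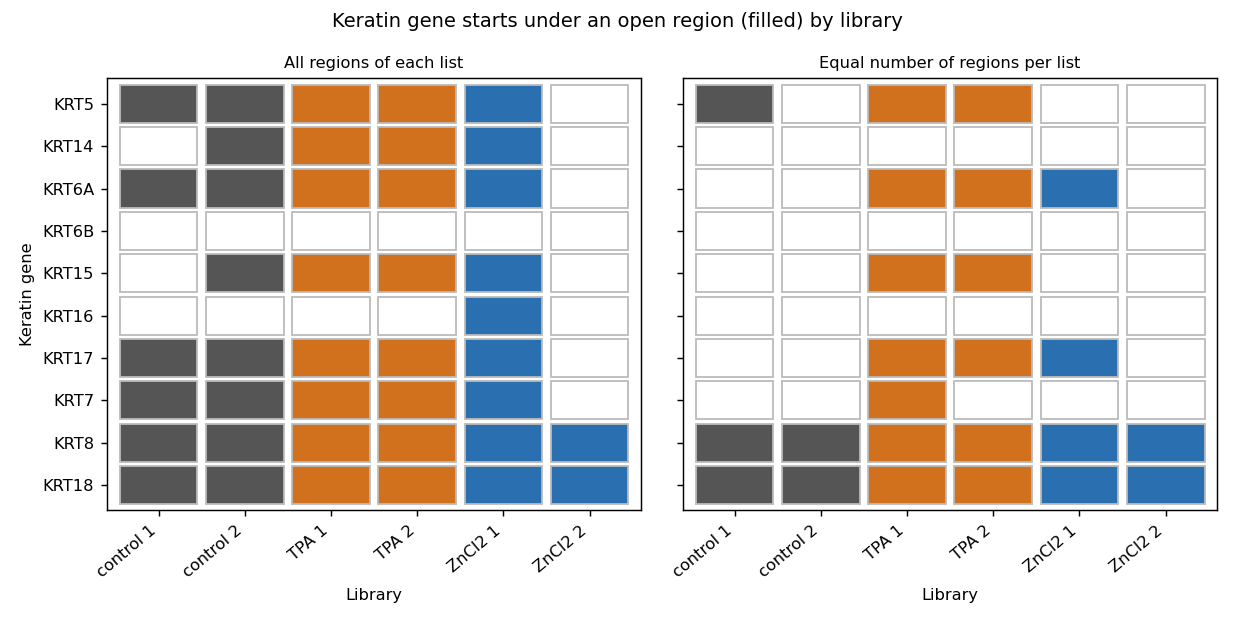
Keratin gene starts (rows) that lay under an open region (filled squares) or did not (white squares) in each library (columns), with control in grey, TPA in orange and ZnCl2 in blue. The left panel uses every region and the right panel only the 18887 highest scoring regions of each list; in the left panel ZnCl2 replicate 2 is filled only for KRT8 and KRT18, in the right panel control replicate 2 is so too, and there KRT6A, KRT15 and KRT17 are filled in both TPA and in neither control library.

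The outermost annotated start is not always the start of the main transcript. For KRT8 it lay 44878 bp upstream of the start of the MANE Select transcript, the agreed reference transcript of a gene, and inside the body of KRT18, so KRT8 and KRT18 shared a single open region. For KRT15 and KRT16 the distances were 3639 and 3132 bp, and for the other members at most 723 bp. Values at the MANE Select start are therefore given beside the others for these 3 genes. At MANE Select starts, no basal and 1 of 3 luminal keratins (KRT18) were open in all 6 libraries, against 43.6% of 19056 starts.

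The score that the authors' caller gave each region was read as a percentile, the share of regions in the same list with a lower score, since its kind is not stated in the sources used here and scores need not share a scale between lists. KRT5 (ENSG00000186081.12, chr12:52514575-52520530, minus strand) had a start region at percentiles 37.1 and 45.6 in the untreated libraries, 76.0 and 58.6 after TPA and 21.2 in ZnCl2 replicate 1. Both TPA values lay above both control values, and ZnCl2 replicate 2 had no region within 5 kb of the gene. The region over the KRT5 start was 3430 bp wide or wider in the 5 lists that held it, wider than at least 95.6% of the regions of its list, and its shared part, chr12:52519881-52523310, ran from 2916 bp upstream to 513 bp downstream of the start.

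KRT14 (ENSG00000186847.6, chr17:41582279-41586895, minus strand), the filament partner of KRT5, had no region at its start in control replicate 1. Its start region stood at percentile 44.2 in control replicate 2, 43.4 and 53.2 after TPA and 41.9 in ZnCl2 replicate 1. These 4 values spanned a narrow range of 41.9 to 53.2, but the widths did not, being 3450 bp in control replicate 2, 2540 bp in ZnCl2 replicate 1 and 650 and 900 bp with TPA. Both TPA lists held a further region whose nearer end lay 766 and 1086 bp upstream of the start. It fell within the stretch that control replicate 2 and ZnCl2 replicate 1 held as 1 region, so the TPA calls were split. The most recurrent region of the KRT14 locus was not at the start: an interval of 930 bp, 6665 to 7594 bp downstream of the start and outside annotated genes, was open in all 6 libraries. The regions that held it stood at percentiles 47.9 and 47.0 in the untreated libraries, 21.2 and 25.7 after TPA, and 67.5 and 25.3 with ZnCl2. Here both TPA values were below both control values, and the ZnCl2 values lay on both sides of the control. Of protein-coding starts, 21.9% had TPA below control in this way, and no such share was computed for intervals away from starts. The regions compared were also unlike in width, 1270 and 4320 bp untreated and 2530 and 930 bp after TPA.

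The pair KRT6A and KRT6B, near-identical type II keratins, differed at their starts. KRT6A (ENSG00000205420.11, chr12:52487176-52493257, minus strand) was open at its start in 5 libraries, at percentiles 9.08 and 51.0 in the untreated libraries, 50.4 and 64.8 after TPA and 52.5 in ZnCl2 replicate 1. The control values were far apart and the groups overlapped. KRT6B (ENSG00000185479.6, chr12:52446651-52452146, minus strand) had no region at its start in any library, as was the case for 39.7% of protein-coding starts, although an interval 9026 to 9845 bp downstream of the start, chr12:52442301-52443120, was open in every library but ZnCl2 replicate 2. Regions over that interval stood at percentiles 16.8 and 58.0 in the untreated libraries, 33.1 and 30.1 after TPA and 21.2 in ZnCl2 replicate 1, so the control values enclosed the others. Within 500 bp of the start, 33.0% of 75-base pieces of KRT6A and 32.8% of those of KRT6B occurred elsewhere in the genome, against 12.5% for KRT14, 6.69% for KRT16 and 6.26% for KRT17, and 2.16% or less for the other members. The part of this repetition in the calls was not tested.

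KRT6A also had a second shared interval, 3094 to 3803 bp upstream of its start, which formed a region of its own in control replicate 1 and was merged with the start region in the other 4 lists that held it. In TPA replicate 2 that merged region was 27870 bp wide (chr12:52491661-52519530) and ran from KRT6A into the body of KRT5. The start regions of KRT6A in the other libraries were 900 and 5620 bp wide in the untreated libraries, 4710 bp in TPA replicate 1 and 4670 bp in ZnCl2 replicate 1. TPA replicate 2 is also the list with the most regions wider than 10 kb, and whether the wide call reflects that library was not tested.

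**Figure D2:**
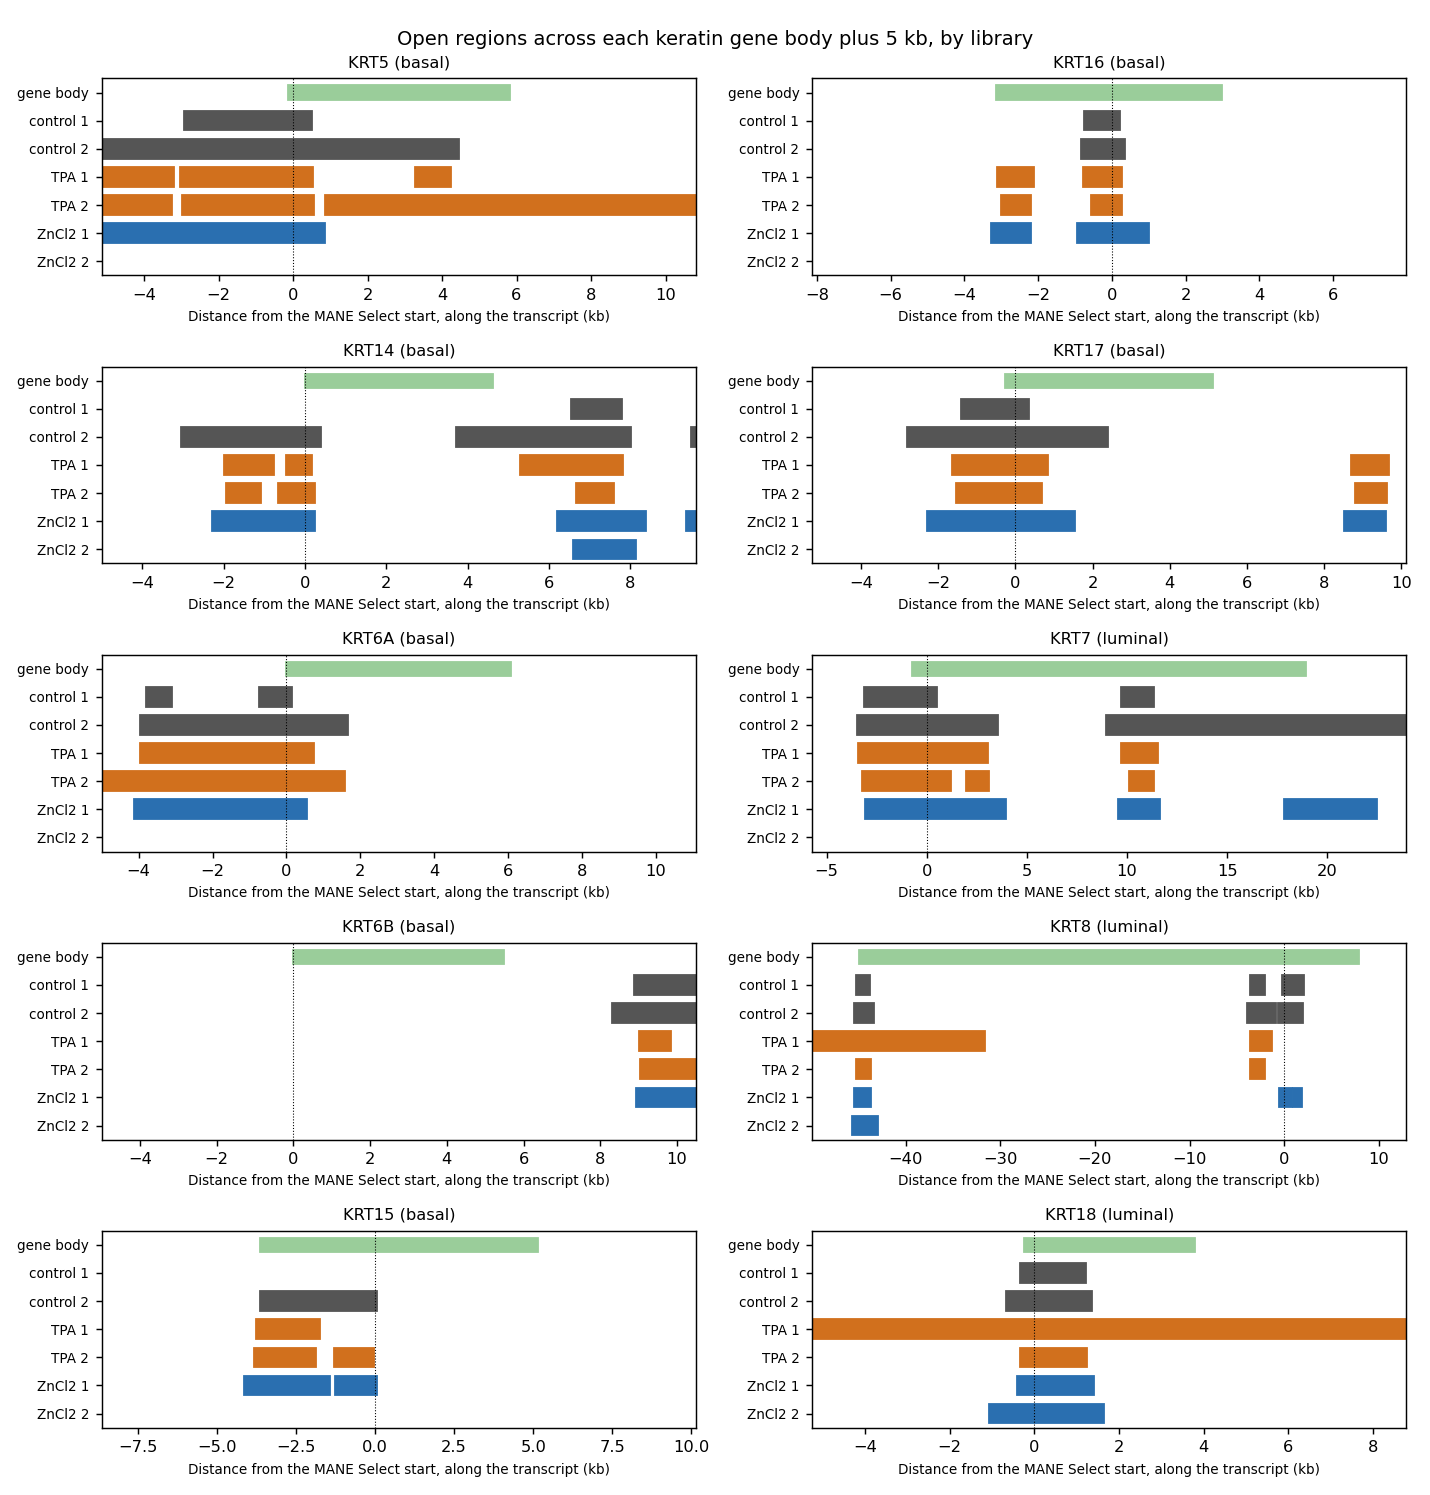
Open regions (bars) in each library across the gene body (green) plus 5 kb on either side, against the distance in kb from the MANE Select start along the transcript (dotted line at 0), with control in grey, TPA in orange and ZnCl2 in blue. The interval downstream of KRT14 is filled in all 6 rows, KRT6B has bars only beyond its gene body, and in KRT8 the bars shared with KRT18 lie far upstream of the MANE Select start, at the far left end of the gene body.

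KRT15 (ENSG00000171346.16, chr17:41513745-41522529, minus strand) was open at its outermost start in 4 libraries, at percentiles 34.3 in control replicate 2, 52.0 and 65.9 after TPA and 9.89 in ZnCl2 replicate 1. Control replicate 1 had no region anywhere in the KRT15 window, so the control had 1 value and no spread. At the MANE Select start of KRT15, only control replicate 2 (34.3) and ZnCl2 replicate 1 (3.52) had a region, and the regions of TPA replicates 1 and 2 that were nearest to it ended 1751 and 21 bp upstream.

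KRT16 (ENSG00000186832.9, chr17:41609778-41615899, minus strand) showed the reverse relation between its starts. Its outermost start was covered only in ZnCl2 replicate 1, at percentile 15.8. Both TPA replicates had a region within 500 bp of that start that did not cover it, at 45.1 and 27.9. The MANE Select start was open in 5 libraries. Its region stood at 24.2 and 36.0 in the untreated libraries, 74.2 and 61.1 after TPA and 51.3 in ZnCl2 replicate 1. At that start both TPA values lay above both control values, and the value of ZnCl2 replicate 1 lay between the control and TPA values. The regions at the MANE Select start of KRT16 were 840 to 1940 bp wide.

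KRT17 (ENSG00000128422.18, chr17:41619442-41624842, minus strand), the neighbour of KRT16, was open at its start in 5 libraries. The start region of KRT17 stood at percentiles 0 and 42.8 in the untreated libraries, 76.0 and 73.8 after TPA and 55.0 in ZnCl2 replicate 1. A percentile of 0 means that the region had the lowest score of its list, 30, as in control replicate 1. The TPA replicates differed by less than the control replicates and lay above both, and the widths were 1750 and 5200 bp untreated, 2490 and 2250 bp after TPA and 3830 bp in ZnCl2 replicate 1. The windows of KRT16 and KRT17 share 6458 bp. A region in that overlap, close to the outermost start of KRT16, was called in both TPA replicates and ZnCl2 replicate 1, at percentiles 45.1, 27.9 and 15.8. It covered that start in ZnCl2 replicate 1 alone, and neither control replicate held it.

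KRT7 (ENSG00000135480.17, chr12:52232520-52252186, plus strand) was open at its start in every library but ZnCl2 replicate 2. Its percentiles were 0 and 51.0 in the untreated libraries, 59.4 and 40.1 after TPA and 21.2 in ZnCl2 replicate 1, so all groups overlapped. The start region was wide, 3660 and 7060 bp untreated, 6500 and 4470 bp after TPA and 7040 bp in ZnCl2 replicate 1.

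KRT18 (ENSG00000111057.11, chr12:52948871-52952906, plus strand) was the member with the most complete calls, with a region at its start in all 6 libraries. The percentiles were 60.8 and 72.0 in the untreated libraries, 71.3 and 72.9 after TPA, and 86.9 and 28.7 with ZnCl2. The ZnCl2 values were the highest and the lowest of the 6, so no ordering of the conditions followed. The interval shared by all 6 lists was 1560 bp, chr12:52948781-52950340, and the whole regions were 1560 to 2720 bp wide except in TPA replicate 1, where a region of 21250 bp covered all of the KRT18 window.

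KRT8 (ENSG00000170421.13, chr12:52897187-52949954, minus strand) had the same values as KRT18 at its outermost start because the region was the same. At its MANE Select start, KRT8 had a region in both control replicates, at 9.08 and 36.0, in ZnCl2 replicate 1, at 21.2, and in neither TPA replicate. This is the only member start with regions in both control and in neither TPA library, a pattern that 0.577% of MANE Select starts had. All 3 scores were low in their lists, and both TPA lists and both control lists held a further region closer than 4 kb upstream of that start, at percentiles 3.39 and 6.68 after TPA and 9.08 and 19.7 in the control.

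**Figure D3:**
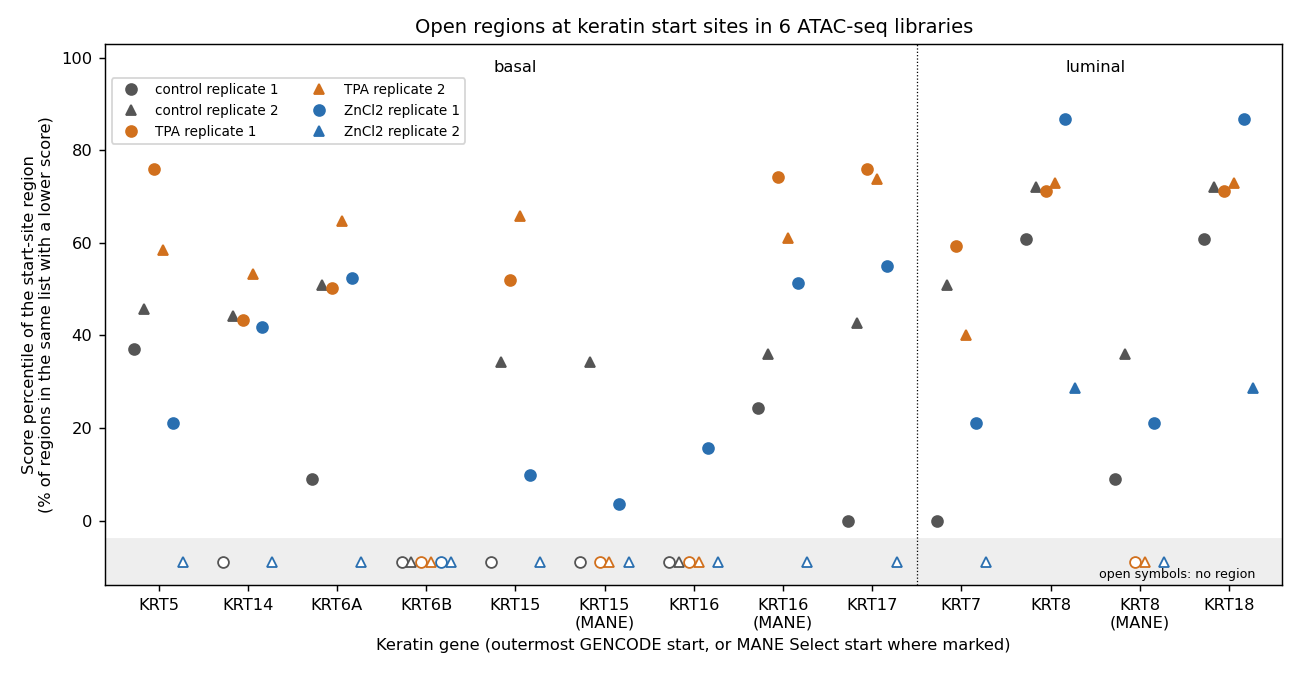
Score percentile (vertical axis, % of regions in the same list with a lower score) of the region over each keratin start in each library, with control in grey, TPA in orange, ZnCl2 in blue, circles for replicate 1 and triangles for replicate 2; open symbols in the grey strip mark libraries with no region. KRT5, KRT16 at its MANE Select start and KRT17 have both orange symbols above both grey symbols, and KRT8 and KRT18 share one region at the outermost start.

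In the complete lists, ZnCl2 replicate 2 had fewer open starts at these genes than any other library. Of the 6 members whose outermost start was open in the other 5 libraries, 4 (KRT5, KRT6A, KRT17 and KRT7) were not open there, whereas 11.1% of the 8857 protein-coding starts open in the other 5 libraries were not. The remaining members, KRT8 and KRT18, share a single region. At MANE Select starts the count not open was 5 of 6, with KRT16 added, against 10.9%. The list of ZnCl2 replicate 2 held no region at all in the windows of 7 of the 10 members, and the regions it did hold were at KRT14 downstream and at the start of KRT18. Without that library, 3 basal keratins (KRT5, KRT6A and KRT17) and all 3 luminal keratins were open in every remaining library, where 44.3% of protein-coding starts were. The list of ZnCl2 replicate 2 was also the shortest. With 18887 regions in every list, control replicate 2 was open at the same starts as ZnCl2 replicate 2, those of KRT8 and KRT18 alone. At that length 1 basal keratin was open in control replicate 1, 4 in each TPA replicate and 2 in ZnCl2 replicate 1. The part of list length in the missing calls was not tested.

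The comparison of TPA with control asks whether chelation of Zn2+ went with a change at the keratin starts. Of the 6 members with a region at the outermost start in all 4 libraries, 2 had higher percentiles in both TPA than in both control replicates and none had lower ones. KRT8 and KRT18, which share a single region, are 2 of these 6. Over all protein-coding genes, 11.8% of 8915 starts were higher and 21.9% were lower by the same rule. For KRT5 the mean percentile was 67.3 ± 12.3 (SD, n = 2) after TPA and 41.4 ± 6.01 in the control, and for KRT17 it was 74.9 ± 1.55 after TPA and 21.4 ± 30.2 in the control. The two-sided exact permutation p was 0.333 for both, which is the smallest that 2 libraries against 2 allow, so no difference could pass a threshold of 0.05. Leaving out a library narrows the ranges, so a member called higher stays so and the count could only hold or rise. It was 6 of 6 without control replicate 2, where 56.1% of all starts were higher, and 5 of 6 without TPA replicate 1, where 27.4% were.

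The other tested starts overlapped between TPA and control. KRT6A had means of 57.6 ± 10.2 and 30.0 ± 29.6 (SD, n = 2), KRT7 of 49.8 ± 13.6 and 25.5 ± 36.0, and the shared region of KRT8 and KRT18 of 72.1 ± 1.17 and 66.4 ± 7.93, each with TPA first. All of these means were higher with TPA, but by less than the SD of the control replicates. These differences depended on control replicate 1: without it, TPA minus control was 6.61 for KRT6A, -1.22 for KRT7 and 0.127 for KRT8 and KRT18, against 27.5, 24.3 and 5.73 with it. At MANE Select starts, KRT16 joined KRT5 and KRT17, with 67.6 ± 9.23 after TPA and 30.1 ± 8.35 in the control, so that 3 of 6 tested members were higher and none was lower, against 11.4% and 22.4% of all starts. All 3 are basal keratins, and the tested luminal starts, KRT7 and KRT18, overlapped, but luminal members were higher in other settings: KRT7 with any transcript start or the highest region of the window, and the region of KRT8 and KRT18 with percentiles taken among protein-coding start regions, at 51.2 and 48.4 after TPA and 39.8 and 38.0 untreated. Widths of the start regions were not separate for any of the 6 members at outermost starts, while 18.3% of starts were.

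Because the lists differ in length, the comparison was repeated with only the 18887 highest scoring regions of each. Then KRT6A, KRT15 and KRT17 were open at the outermost start in both TPA and in neither control replicate, 3 of 10 members, against 0.645% of protein-coding starts. At MANE Select starts these were KRT6A and KRT17, against 0.63%. The longer lists lose more of their regions under this rule, 57.7% in control replicate 2 against 24.5% in control replicate 1 and 47.4% and 54.4% in the TPA replicates. For KRT6A, the region stood at 51.0 in control replicate 2 and was left out, and at 50.4 in TPA replicate 1 and was kept. For KRT17 and KRT15, the percentiles in control replicate 2, 42.8 and 34.3, were below those of both TPA replicates in the complete lists. The KRT15 region of TPA replicate 1, kept at 52.0, was also below the 57.7% left out of control replicate 2. Control replicate 1 had no region at the KRT15 start in its complete list. The part of list length in these calls was not tested.

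For ZnCl2 the comparison asks the converse question, of added Zn2+, and it could be made only for the region shared by KRT8 and KRT18, since no other member start was open in both ZnCl2 replicates. That region had 57.8 ± 41.1 (SD, n = 2) with ZnCl2, overlapping the control and TPA values, where 16.3% and 39.5% of protein-coding starts had separate ranges against control and TPA. Taking ZnCl2 replicate 1 alone beside the control replicates, KRT6A, KRT17 and the region of KRT8 and KRT18 were above both, KRT5 was below both and KRT7 lay between them. With 1 library these values have no replicate check.

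Basal and luminal keratins could not be ranked against each other by score, because the order depended on the start that was used. At outermost starts, the median percentile of the open basal keratins was below that of the luminal ones in each of the 5 libraries with both, and basal minus luminal was -32.5 on average (SD 20.5, n = 5 libraries, range -55.4 to -8.16). The luminal median there was in each library the value of the region shared by KRT8 and KRT18, so KRT7 did not enter it. At MANE Select starts, where KRT8 no longer takes the region of KRT18, the mean difference was 7.79 with basal higher (SD 11.8, range -7.48 to 25.4). Members are not replicates, so no test was made.

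Against all genes, the member starts were more often low in score than narrow. The start regions of 6 of 6, 8 of 8, 4 of 8, 8 of 8, 7 of 9 and 2 of 2 open members were below the median percentile of protein-coding start regions in control replicates 1 and 2, TPA replicates 1 and 2 and ZnCl2 replicates 1 and 2. That median ran from 66.6 to 80.6 in the 6 lists. In the same order, 3, 6, 7, 5, 6 and 2 of these members had a region wider than the median protein-coding start region, which was 1690 to 2760 bp wide. TPA replicate 1 had the smallest share of open members below the median percentile. In that list the single region of KRT8 and KRT18 stood exactly at the median, 71.3, so neither member counted as below it.

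Base composition, which the choice of the genes did not use, set the basal keratins and KRT8 apart from KRT7 and KRT18. CpG dinucleotides within 250 bases on either side of the MANE Select start occurred at 0.175 (KRT15) to 0.551 (KRT14) of the expected frequency in the 7 basal keratins. KRT7 and KRT18 had 0.832 and 0.786, and KRT8 had 0.404, which is within the basal range. The median of 19056 protein-coding starts was 0.781, so all 7 basal keratins and KRT8 were below it. GC content was 73.5% for KRT7 and 72.7% for KRT18 against 52.7 to 65.9% for the basal keratins, 63.3% for KRT8 and a median of 64.9%.

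**Figure D4:**
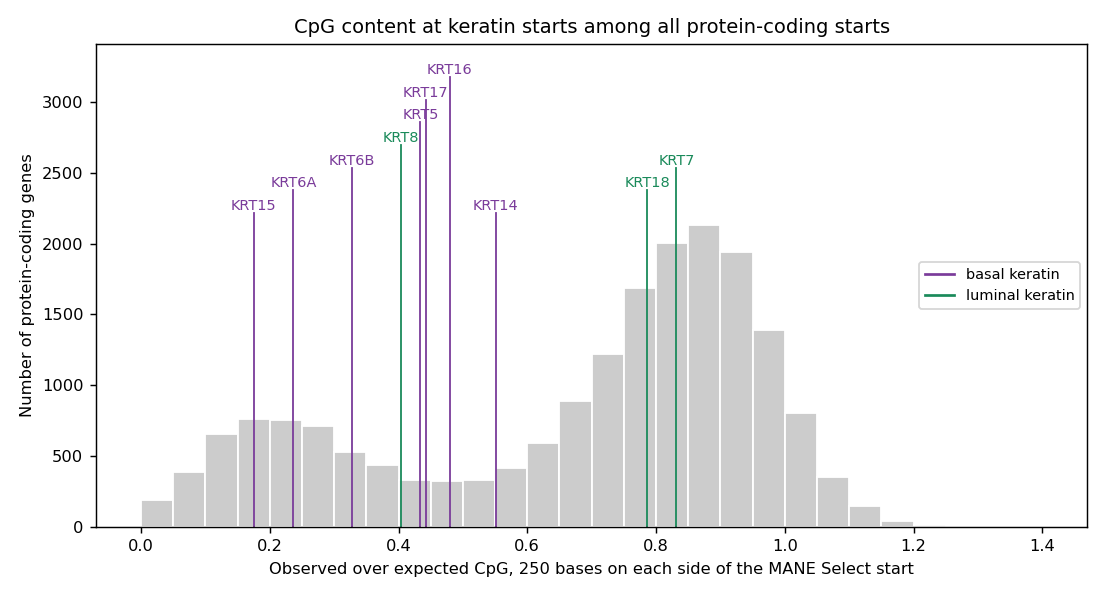
Observed over expected CpG frequency within 250 bases of the MANE Select start (horizontal axis) for all protein-coding genes (grey bars, number of genes per bin) with lines for the basal (purple) and luminal (green) keratins, whose heights only separate the labels. The basal keratins lie from 0.175 to 0.551 with KRT8 among them, and KRT7 and KRT18 lie at 0.832 and 0.786.

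Most of the other 45 keratin genes had no open start in any library, where 39.7% of all protein-coding outermost starts and 36.4% of MANE Select starts had none. KRT80, a simple epithelial keratin, was open in all 6 libraries, at 74.5 and 81.7 in the untreated libraries, 82.1 and 81.0 after TPA, and 73.0 and 38.5 with ZnCl2. KRT81, a hair keratin, was open in 4 libraries, at 42.6 in control replicate 1, 73.3 and 64.8 after TPA and 64.8 in ZnCl2 replicate 1. KRT86, named here after its values were seen, was open at its outermost start in control replicate 2 alone, at 49.7. KRT19, a luminal keratin, and KRT20, KRT23 and KRT222 had no open outermost or MANE Select start in any library, nor had any of 14 other stratified epithelial keratins, among them KRT6C and KRT10, or 24 of 26 hair and root sheath keratins. Other starts of these genes were not examined.

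**Figure D5:**
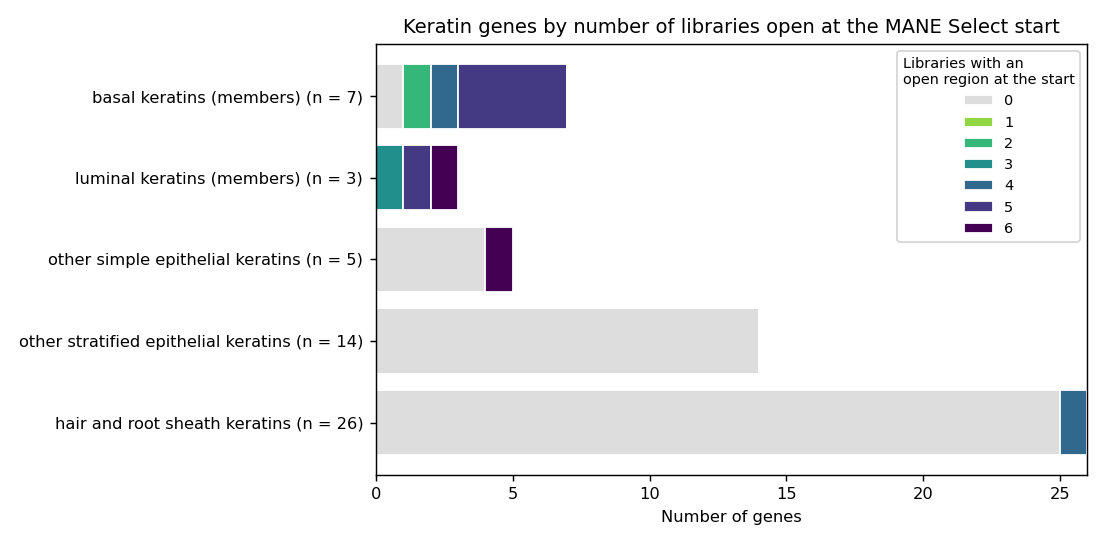
Number of keratin genes (horizontal axis) by the number of libraries, 0 to 6, with an open region at the MANE Select start (colour), for each group of keratins (rows). Of the other keratins only KRT80 (6 libraries) and KRT81 (4 libraries) have any library open, against 6 of 7 basal and 3 of 3 luminal members. Over all protein-coding genes, 63.6% of MANE Select starts were open in at least 1 library.

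The genes whose start percentiles were most like those of a member were sought among genes called in the same libraries, by the mean absolute difference in percentile. For KRT5, over 5 libraries and 976 such genes, they included SLMAP (6.56) and TIMM8B (7.59). For KRT14, over 4 libraries and 534 genes, they were ABT1 (2.27), RAB27A (2.75) and PIGBOS1 (2.75). For the region of KRT8 and KRT18, over 6 libraries and 7873 genes, they were SH3BGRL3 (2.29), RFXAP (3.85) and EPN1 (3.86). These likenesses are over few libraries and describe the calls only.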

How the data were processed

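ATAC-seq libraries of untreated, TPA-treated and ZnCl2-treated MCF10A cells were analysed, 2 per condition, grouped by the sample labels. Per the methods, the authors checked reads with FastQC 0.11.8, removed adapters (BBDuk), aligned pairs to hg38 (HISAT2 2.1.0), handled alignments with SAMtools 1.8 and ran HMMRATAC on every library by itself, without pooling. The deposited lists hold each region's position and a whole-number score from the authors' caller, at least 30, with no read counts, so depth is unknown and counting intervals are not given.

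Only chromosomes 1 to 22, X and Y were used, and 72 to 203 regions per list on other contigs were left out. A score percentile was the share of regions of the same list with a lower score. A start was open where a region covered its base, the outermost GENCODE release 44 start of the gene or, added after the data were seen, the MANE Select start. Ranges were called separate where the values of 2 groups did not overlap, all 4 libraries having a region, and the same call over all protein-coding genes was the background. The test for a single gene was an exact permutation test, two-sided. The 10 members and the gene lists were chosen with earlier results of these data known. All members were named, other keratins where open in at least 4 libraries, and the 3 genes most like KRT5, KRT14, KRT8 and KRT18. One such gene, a marker gene and a sequence are not reported here. By the same rule promoters were to be shown for KRT5, KRT14, KRT6A, KRT8 and KRT18. RefSeq promoter entries matched 2 of the 10 members, KRT5 and KRT8, and the KRT8 entry was not printed because it lies at another start of KRT8, chr12:52926469, which no list covered. Alternatives were an equal number of regions per list, the part of each list above its median score, other start definitions, the highest region of the window, all contigs, another percentile reference, leaving out each library and the replicate number as a block. Procedures were tested on simulated data. Python 3.11.15, pandas 2.3.3, SciPy 1.17.1 and pysam 0.24.0 were used.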

Additional observations from a re-analysis of the deposited data

How the results depend on the processing

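Against control, 2 of 6 members were higher with TPA and none was lower, and no alternative gave a lower member without overlap, but the mean difference of KRT7, which overlapped, turned from 24.3 to -1.22 without control replicate 1. The count of higher members was 0 with an equal number of regions and 0 with regions above the median score, where 2 members could be tested, 4 of 7 with any transcript start (background 12.3%), 4 of 9 with the highest scoring region of the window (17.5%), both adding KRT16 and KRT7, and 5 of 6 with percentiles among protein-coding start regions (23.8%), adding KRT6A, KRT8 and KRT18. Except at MANE Select starts, KRT8 and KRT18 are a single region that counts as 2 members. Leaving out each library gave 2 to 6, with 6 of 6 without control replicate 2, where 56.1% of all starts were higher, and 5 of 6 without TPA replicate 1 (27.4%). Ranges narrow when a library is left out, so such counts could only hold or rise. The replicate block gave 5 of 6 (23.7%), but the labels do not say whether libraries with the same replicate number belong together. The deviations of replicate 1 correlated across 7877 genes at 0.173 for TPA and control, -0.458 for ZnCl2 and control and -0.140 for TPA and ZnCl2. Replicates also differed in list length, so these correlations cannot decide whether the libraries were paired. Under the block, and under a crossed block added after seeing the data, ZnCl2 gave 0 separate members against control and against TPA. Leaving out each library gave 0 to 5 for ZnCl2 against control and 0 to 7 for TPA against ZnCl2, the highest without ZnCl2 replicate 2 (5 of 6 and 7 of 8, against 48.7% and 76.1% of all starts) and 2 of 2 without ZnCl2 replicate 1 (68.9% and 83.8%). That 2 of 2 is the single region of KRT8 and KRT18. The number of luminal keratins open in all libraries fell from 2 to 0 among regions above the median score and to 1 at MANE Select starts. The number of basal ones rose from 0 to 1 (KRT14) with the highest region of the window, and was 0 to 3 without each library, 3 without ZnCl2 replicate 2. Basal minus luminal percentile was -32.5, -38.5 to -26.7 without each library, and reversed to 7.79 at MANE Select starts, where KRT8 loses the region of KRT18. At outermost starts the luminal side is the single region of KRT8 and KRT18. Of the other values, 167 stayed within a tolerance and 10 moved by more, all of the latter widths of KRT16 or open shares of windows. The tolerance was the larger SD of the 2 groups for percentiles, and the SD over the libraries of all conditions for widths and open shares. It was wide for some members: the change of KRT7 above lay within it, since the control SD of KRT7 was 36.0. With 2 libraries a group and unknown depth, a start without a region was not called at the depth of its library, which does not show that it was closed.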

Other observations

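Keratin windows differed in how much of them was open. The window of KRT5, its gene body plus 5 kb on either side, was open over 21.5% and 60.1% in the untreated libraries, 40.7% and 96.3% after TPA, and 37.6% and 0% with ZnCl2. The highest value belongs to TPA replicate 2, where the region of 27870 bp that begins at KRT6A covers most of the KRT5 body. The median over 6 libraries was 39.1% for KRT5, 29.2% for KRT6A, 25.7% for KRT7, 24.3% for KRT14 and 21.3% for KRT17, against 14.1% for KRT15, 13.6% for KRT18, 9.81% for KRT6B, 8.84% for KRT16 and 7.68% for KRT8, whose window is the longest at 62768 bp. A region anywhere in the window was called in all 6 libraries for KRT14, KRT8 and KRT18, 3 of 10 members, and for 59.4% of protein-coding genes.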
